A study of Mus musculus with 6 samples.

Results

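The class IIa histone deacetylases Hdac4, Hdac5, Hdac7 and Hdac9 and the MEF2 transcription factors Mef2a, Mef2b, Mef2c and Mef2d were followed by symbol in 6 skin tumours of the mouse melanoma line B16F10. All 8 genes were found among the 44679 genes of each library. There were 3 untreated tumours and 3 treated in vivo with vorinostat, a hydroxamate inhibitor of zinc-dependent histone deacetylases. All tumours were of the same line, RNA was taken from pellets of tumour cells, and total RNA was sequenced. For the host strain, age, dose, route and duration of treatment, the sources used here give nothing. The labels do not say that each tumour came from a different mouse, so the p-values measure the spread between these 6 samples. The sample titles carry G numbers, 1, 1 and 2 for untreated tumours 1, 2 and 3. For vorinostat tumours 1, 2 and 3 they are 3, 3 and 4. No G number occurs in both groups, so what it stands for, which is not stated, cannot be told apart from treatment. Untreated tumour 3 and vorinostat tumour 3 each have a G number that no other tumour has.

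Class IIa deacetylases are signal-dependent corepressors. Their N-terminal part binds MEF2 factors at DNA, and kinases that phosphorylate them create docking sites for 14-3-3 proteins, which carry them out of the nucleus and free MEF2 to recruit acetyltransferases. A histidine replaces the catalytic tyrosine of other deacetylases in their active site, so they have little activity of their own on acetyl-lysine, depend on Hdac3 complexes for deacetylation, and are bound by vorinostat only weakly compared with class I and IIb enzymes. The partnership is best known in muscle, heart, neurons, lymphocytes and endothelium. MEF2 factors are also used by cells of the neural crest, from which melanocytes arise.

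The 250 bases before each annotated start site were read from RefSeq (GRCm38.p6) to show how the promoters of these genes differ, matched by symbol for 8 of 8 genes with 14 start sites. The 4 printed here are that of the gene with the highest level (Mef2d), those of the 2 genes with the lowest levels (Hdac9 and Mef2b; the more upstream of 2 start sites for Hdac9), and the single one that holds a MEF2 element (Hdac5). Capitals mark the MEF2 element in Hdac5 and the TATA box, TATAAA, in Hdac9.
Mef2d, chr3:88142122-88142371, plus strand: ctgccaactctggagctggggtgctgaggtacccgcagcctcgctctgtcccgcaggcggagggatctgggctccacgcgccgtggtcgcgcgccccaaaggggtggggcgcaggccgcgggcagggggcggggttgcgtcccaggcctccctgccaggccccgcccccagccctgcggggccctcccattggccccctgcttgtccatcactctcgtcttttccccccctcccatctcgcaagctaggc
Hdac5, chr11:102230173-102230422, minus strand: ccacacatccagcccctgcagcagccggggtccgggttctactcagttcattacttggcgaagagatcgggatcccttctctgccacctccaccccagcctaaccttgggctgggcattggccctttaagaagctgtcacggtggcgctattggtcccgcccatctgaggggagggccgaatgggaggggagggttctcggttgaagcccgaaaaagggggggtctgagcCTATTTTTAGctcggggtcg
Hdac9, chr12:34917096-34917345, minus strand: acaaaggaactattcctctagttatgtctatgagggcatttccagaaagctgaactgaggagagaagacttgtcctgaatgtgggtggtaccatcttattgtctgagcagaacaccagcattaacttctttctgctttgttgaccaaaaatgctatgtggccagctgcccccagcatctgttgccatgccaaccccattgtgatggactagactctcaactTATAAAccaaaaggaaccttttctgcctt
Mef2b, chr8:70152511-70152760, plus strand: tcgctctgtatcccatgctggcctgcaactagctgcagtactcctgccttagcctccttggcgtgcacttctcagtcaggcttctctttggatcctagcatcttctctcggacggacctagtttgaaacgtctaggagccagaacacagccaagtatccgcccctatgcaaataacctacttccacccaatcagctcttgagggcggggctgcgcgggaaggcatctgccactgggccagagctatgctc

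The Mef2d sequence held 19 CpG dinucleotides and the Hdac5 sequence 12, against a median of 6.0 over 32851 such windows of mouse genes. The Hdac9 sequence held 0 and the Mef2b sequence 9. Hdac4 (23) and Mef2a (21) were also rich in CpG, whereas the 3 Mef2c windows held 1, 6 and 4. The 4 Hdac7 windows held 6, 21, 25 and 5, and 25 was the highest count of the 14 windows. The other Hdac9 window held 2. The MEF2 element, the consensus bound by these factors, was searched on both strands by its standard consensus and occurred in 1 of the 14 windows, against 2.92% of all windows. In Hdac5 it read CTATTTTTAG and ended 11 bases before the start. The TATA box (TATAAA, both strands) occurred in 3 of 14 windows, 1 of Hdac9 and 2 of Mef2c, against 12.4% of all. The GC box (GGGCGG, both strands) was in 6 of 14 against 32.7% of all. These matches describe letters in a window and are not measurements of binding.

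The libraries held between 11.3 and 28.9 M reads assigned to genes, of which between 2.98 and 7.37 M fell on nuclear protein-coding genes. Untreated tumour 3 and vorinostat tumour 3 stood apart. Mitochondrial ribosomal RNA made up 55.9% of the reads of untreated tumour 3 and 13.3% to 25.3% of the reads of the others. In vorinostat tumour 3 reads on 1387 chemoreceptor genes, which most tissues keep silent, reached 214 CPM, and elsewhere 36.1 to 70.1 CPM. CPM are read counts scaled to library size with TMM factors, which allow for differences in library composition. All 7 melanocyte markers examined had reads in every tumour, with a summed level of 5769 to 7376 CPM in untreated and 5735 to 7978 CPM in treated tumours. Markers of other cells were far lower: 87.9 to 322 and 142 to 194 CPM for 9 leukocyte and macrophage genes, 8.89 to 19.98 and 14.4 to 28.3 CPM for 8 endothelial genes, 13.6 to 31.8 and 8.39 to 15.97 CPM for 6 fibroblast genes, and 1.39 to 3.04 and 1.24 to 2.69 CPM for 7 skeletal muscle genes. No marker was at 0 in all tumours. In bulk tumours, fewer cells of a type and less RNA per cell cannot be told apart.

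The order of the levels was first compared per length, in TPM, a transcript's length-corrected share of its library. Mef2d led, with a mean of 6.38 ± 3.12 TPM (SD, n = 6 tumours), above 88.2% of 21406 nuclear protein-coding genes. Hdac5 followed at 4.19 ± 2.11, Mef2a at 3.92 ± 1.56, Hdac4 at 3.10 ± 1.17 and Mef2c at 2.95 ± 1.40 TPM. Hdac7 stood lower, at 1.02 ± 0.393 TPM, and Hdac9 and Mef2b lowest, at 0.112 ± 0.0681 and 0.0921 ± 0.117 TPM. In CPM, which is not corrected for length, Mef2a at a mean of 24.3 and Hdac4 at 17.0 stood above Hdac5 at 15.2. TPM varied with the library, so neighbours were compared within each tumour. Mef2d was above Hdac5 in 6 of 6 tumours, Mef2a above Hdac4 in 6, Mef2c above Hdac7 in 6 and Hdac7 above Hdac9 in 6. Hdac5 was above Mef2a in only 4 of 6 and Hdac4 above Mef2c in 4 of 6, so those neighbours did not differ beyond their spread. Hdac9 was above Mef2b in 3 of 6, and these were the untreated tumours, where Mef2b had no read. In vorinostat tumours 1, 2 and 3 Hdac9 was below Mef2b, at 0.0644, 0.227 and 0.119 against 0.0752, 0.245 and 0.232 TPM. In reads Hdac9 was the higher there, at 11, 22 and 11 against 3, 6 and 5.

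No difference between untreated and vorinostat tumours was found in the RNA of the 7 genes that could be tested. None of the 7 passed edgeR's quasi-likelihood test (Benjamini-Hochberg adjusted p between 0.837 and 0.997), where 0 of 14776 genes did (0.0%). At an unadjusted p under 0.05 none of the 7 was reached either, against 6.27% of all genes. The group ranges overlapped for each of the 7, while 12.1% of all genes had ranges that did not. The median log2 fold change of the 7 was -0.01, against 0.03 over all genes. DESeq2, run on the same counts and genes, called 11 genes and none of the 7.

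**Figure D1:**
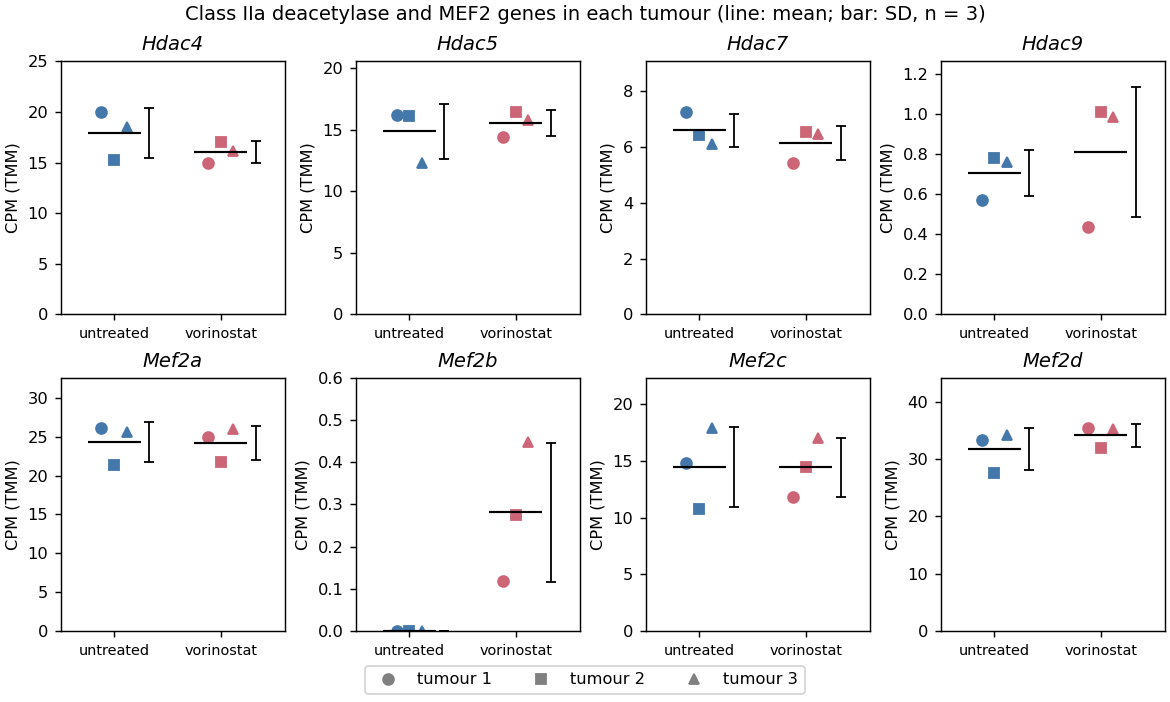
CPM with TMM factors (vertical axes, from 0) of the 4 class IIa deacetylase genes (upper row) and the 4 MEF2 genes (lower row) in 3 untreated (blue) and 3 vorinostat (red) tumours, with the tumour number as symbol, the mean as line and the SD as bar. The groups overlap in every panel but that of Mef2b, which had no read in untreated tumours.

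Among the deacetylases, Hdac4, which restrains chondrocyte and muscle growth programmes (ENSMUSG00000026313, chromosome 1 from 91928779 to 92195699, GRCm38), stood at 20.03, 15.2 and 18.6 CPM in untreated tumours 1, 2 and 3 and at 15.0, 17.0 and 16.1 CPM in vorinostat tumours 1, 2 and 3. Untreated tumours 1 and 3 were the highest, while untreated tumour 2 lay among the treated ones. The means were 17.9 ± 2.46 CPM untreated and 16.1 ± 1.04 CPM treated (SD, n = 3 each), a 0.894-fold level with a 95% interval of 0.709 to 1.13 (log2 fold change -0.16, SE 0.15, edgeR adjusted p 0.837).

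Hdac5, a brake on growth of the stressed heart (ENSMUSG00000008855, chromosome 11 from 102194432 to 102230166), stood at 16.2, 16.1 and 12.3 CPM without and 14.4, 16.4 and 15.8 CPM with the drug. Untreated tumour 3 was the lowest, and the other untreated tumours lay among the treated ones. The ratio was 1.04-fold with an interval of 0.819 to 1.32 (log2 fold change 0.06, SE 0.16, edgeR adjusted p 0.954), and without untreated tumour 3 the log2 fold change was -0.082.

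Hdac7, which maintains vessel integrity and is exported from the nucleus on T cell receptor signals in thymocytes (ENSMUSG00000022475, chromosome 15 from 97792664 to 97844502), stood at 7.25, 6.41 and 6.09 CPM without and 5.42, 6.52 and 6.46 CPM with the drug. The highest and the lowest value both came from tumours numbered 1, and the other 4 lay between them. The ratio was 0.926-fold with an interval of 0.688 to 1.246 (log2 fold change -0.11, SE 0.20, edgeR adjusted p 0.917). The endothelial marker sum was lowest, at 8.89 CPM, in untreated tumour 1, where Hdac7 was highest. Vwf alone gave 5.04 CPM of that sum. The part of endothelial cells in the Hdac7 level was not tested. The exons of Hdac7 overlap those of Slc48a1 on the opposite strand, which had 5375 reads over the 6 libraries against 720 for Hdac7. The library kit keeps strand, but the sources used here do not say whether the quantification used it.

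Hdac9, whose short splice form lacks the deacetylase domain yet still represses MEF2 and which is itself a MEF2-regulated gene in muscle (ENSMUSG00000004698, chromosome 12 from 34047580 to 34917095), was near the limit of measurement. It had 15, 14 and 8 reads in the untreated and 11, 22 and 11 in the treated tumours, or 0.572, 0.781 and 0.761 CPM against 0.435, 1.01 and 0.987 CPM. Vorinostat tumours 2 and 3 were the highest and vorinostat tumour 1 the lowest of the 6. Summed over groups the levels were 0.677 CPM (exact Poisson 95% interval 0.477 to 0.933) and 0.756 CPM (0.550 to 1.02), intervals that cover counting error only. The ratio was 1.15-fold (log2 fold change 0.20, SE 0.73, edgeR adjusted p 0.968), with an interval of 0.375 to 3.50 that includes a 2-fold change in either direction.

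**Figure D2:**
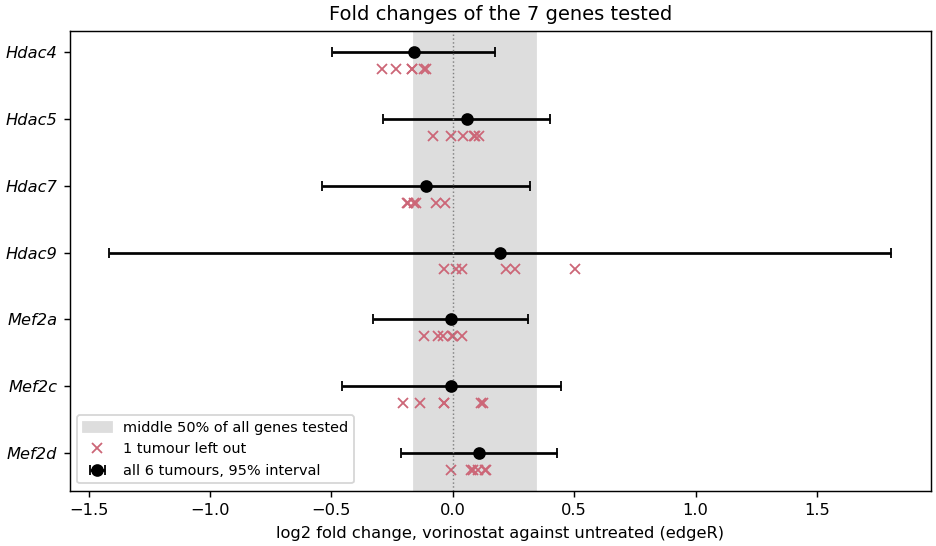
Log2 fold change, vorinostat against untreated, of the 7 genes tested (black points, edgeR, with 95% intervals) and the same with 1 tumour left out (crosses); the grey band holds the middle 50% of all genes tested, from -0.16 to 0.34. Every interval spans 0, and that of Hdac9 is by far the widest.

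Of the MEF2 factors, Mef2d, the broadly expressed member (ENSMUSG00000001419, chromosome 3 from 88142372 to 88172086), stood at 33.3, 27.5 and 34.2 CPM in untreated tumours 1, 2 and 3 and at 35.3, 31.8 and 35.2 CPM in vorinostat tumours 1, 2 and 3. Tumours numbered 2 were the lowest of both groups. The means were 31.7 ± 3.62 and 34.1 ± 1.99 CPM (SD, n = 3 each), a 1.08-fold level with an interval of 0.863 to 1.35 (log2 fold change 0.11, SE 0.15, edgeR adjusted p 0.892). Without untreated tumour 2 the log2 fold change was -0.01.

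Mef2a, which acts in heart and skeletal muscle (ENSMUSG00000030557, chromosome 7 from 67231163 to 67372858), stood at 26.1, 21.4 and 25.6 CPM without and 24.9, 21.7 and 25.9 CPM with the drug. Again the tumours numbered 2 were lowest in both groups. The ratio was 0.993-fold with an interval of 0.796 to 1.24 (log2 fold change -0.01, SE 0.15, edgeR adjusted p 0.992). Tumour numbers are names in accession order and do not pair tumours.

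Mef2c, required in heart, neural crest and lymphoid cells and also expressed in macrophages and endothelium (ENSMUSG00000005583, chromosome 13 from 83504034 to 83667080), was the most variable of the well-expressed genes. It stood at 14.8, 10.8 and 17.9 CPM without and 11.8, 14.5 and 17.0 CPM with the drug. Untreated tumour 3 and vorinostat tumour 3 were the highest. The ratio was 0.996-fold with an interval of 0.729 to 1.36 (log2 fold change -0.01, SE 0.20, edgeR adjusted p 0.997). Its log2 fold change was 0.12 without untreated tumour 3 and -0.20 without untreated tumour 2. Untreated tumour 3 also had the highest sum of the 9 leukocyte and macrophage markers, at 322 CPM, and untreated tumour 2, the lowest in Mef2c, the lowest sum, at 87.9 CPM. Vorinostat tumour 3 had 142 CPM of these markers but the highest endothelial sum, 28.3 CPM, and untreated tumour 3 the next, 19.98 CPM. The part of these cells in the Mef2c level was not tested.

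Mef2b, the member known from germinal centre B cells (ENSMUSG00000079033, chromosome 8 from 70139711 to 70167488), was the exception to the overlap. It had 0 reads in each untreated tumour and 3, 6 and 5 reads in vorinostat tumours 1, 2 and 3, or 0.119, 0.276 and 0.448 CPM. The floor used for a library, 3 reads, corresponds to between 0.114 and 0.285 CPM in the untreated tumours. Vorinostat tumours 1 and 2 lay below the floor of untreated tumour 3, 0.285 CPM, so no fold is given. The exact permutation p was 0.1 (two-sided, n = 3 each), the smallest such groups can give. Mef2b did not pass the filter on low counts and so had no main test; without a filter its edgeR adjusted p was 0.682.

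The same pattern was counted in other genes with few reads. Among 4036 untested genes with 10 to 20 reads in all, 57 (1.41%) had no read in any untreated and 3 or more in each treated tumour, and 2 (0.0496%) had the reverse. Reads on the chemoreceptor genes stood at 36.1, 40.8 and 70.1 CPM in the untreated and 59.1, 56.8 and 214 CPM in the treated tumours, and in CPM the ranges overlapped. Before TMM scaling they did not: the reads numbered 945, 730 and 739 without and 1492, 1237 and 2381 with the drug, or 39.1, 64.6 and 25.5 against 68.3, 93.7 and 177 per M assigned reads. The 5 B cell markers summed to 1.73 to 7.99 CPM without and 3.05 to 8.25 CPM with the drug. The part of either in the Mef2b reads was not tested. The Mef2b locus also spans Borcs8 on the same strand, with shared exons, and Borcs8 had 649 reads over the 6 libraries with a log2 fold change of 0.02 (SE 0.22), so the assignment of 14 reads between them is uncertain.

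Summed over each family, the groups overlapped. The summed level of the deacetylases was 40.1 ± 3.45 CPM without and 38.5 ± 2.99 CPM with the drug, and that of the MEF2 genes 70.5 ± 9.53 and 73.1 ± 5.22 CPM (SD, n = 3 each). Shares within a family are taken inside a library and so do not depend on how libraries are scaled. Hdac5 gave 46.6% ± 5.71 of the deacetylase TPM without and 51.8% ± 4.30 with the drug, and Hdac4 40.0% ± 4.44 and 34.7% ± 3.81. Hdac7 gave 12.2% ± 1.43 and 12.1% ± 1.16, and Hdac9 at most 1.66% in any tumour. Mef2d gave 46.3% ± 3.84 of the MEF2 TPM without and 48.0% ± 1.27 with the drug. Mef2a gave 29.1% ± 4.69 and 30.3% ± 4.16, and Mef2c 24.6% ± 3.85 and 20.5% ± 2.81. The ranges of the groups overlapped for Hdac4, Hdac5, Mef2c and the other genes but Mef2b. The ratio of summed MEF2 to summed deacetylase TPM was 1.45, 1.48 and 1.55 in untreated and 1.91, 1.64 and 1.46 in treated tumours 1, 2 and 3, and overlapped as well.

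**Figure D3:**
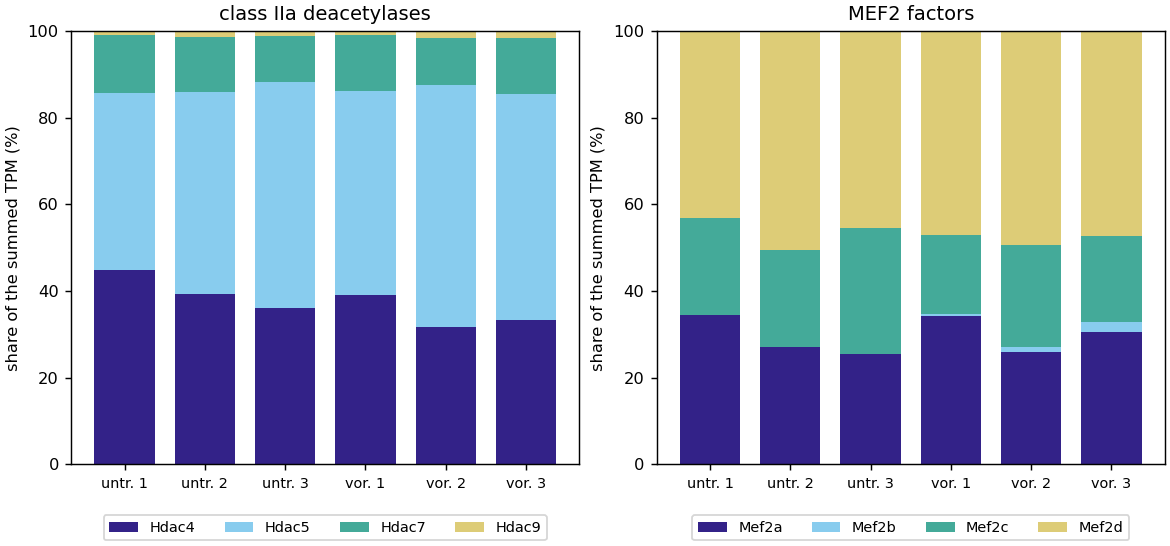
Share of each gene in the summed TPM of its family (stacked bars to 100%) in untreated (untr.) and vorinostat (vor.) tumours 1 to 3. Hdac5 with Hdac4 and Mef2d with Mef2a make up most of each bar in all 6 tumours, and Mef2b appears only as a thin band in the treated ones.

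The deposited gene length, which Salmon averages over the transcripts of a gene by their abundance, gave a view of transcript use that the levels do not. Hdac4 averaged 3435, 3235 and 3376 bases in untreated tumours 1, 2 and 3 and 3471, 3739 and 3658 bases in vorinostat tumours 1, 2 and 3. All 3 treated values lay above all 3 untreated ones. Of 9992 tested genes whose length varied, 9.38% had ranges that did not overlap and 3.78% were longer in every treated tumour. The other 5 well-expressed genes overlapped. Hdac4 has 4 coding transcripts of 849 to 8100 bases in GENCODE M21. Mef2c ran from 2662 to 4408 bases, the latter in vorinostat tumour 3. Hdac5 ran from 1663 bases in untreated tumour 3 to 3072 bases in untreated tumour 1, and 7 of its 20 annotated transcripts are coding, of 427 to 4852 bases. A shorter length raises TPM for the same reads, so the Hdac5 rank in TPM carries this spread. Hdac9 was given the single length of 4422 bases in every tumour.

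**Figure D4:**
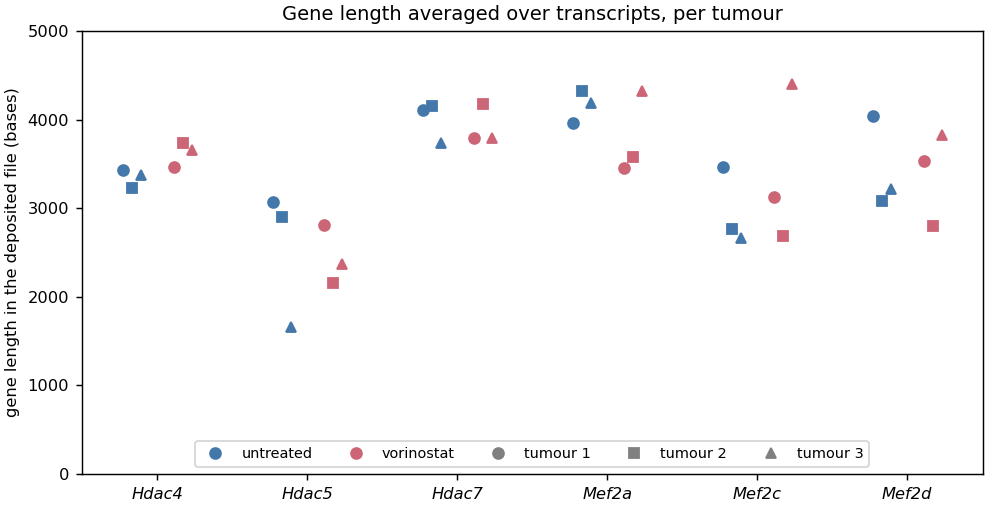
Gene length in the deposited files (bases, vertical axis from 0), averaged by Salmon over transcripts, for the 6 well-expressed genes in untreated (blue) and vorinostat (red) tumours, with the tumour number as symbol. Hdac4 is the one gene whose 2 groups do not overlap, and Hdac5 spreads widest within the untreated group.

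The other genes of the pathway were taken as 8 lists by role, with 77 genes of which 72 passed the filter. None passed the edgeR threshold (smallest adjusted p 0.743), and Klf2 without a filter and Bach2 on log2(TPM + 1) and log2(TPM + 0.1) were the genes called in any other setting. At an unadjusted p under 0.05 there were 4 higher and 2 lower in treated tumours, of 72, against 3.36% and 2.92% of all genes. Ranges did not overlap for 8 higher and 2 lower genes, 13.9%, against 12.1% of all genes (6.53% higher and 5.53% lower). The median log2 fold change over the 72 was 0.01, and 37 were above 0, where 54.1% of all genes were.

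**Figure D5:**
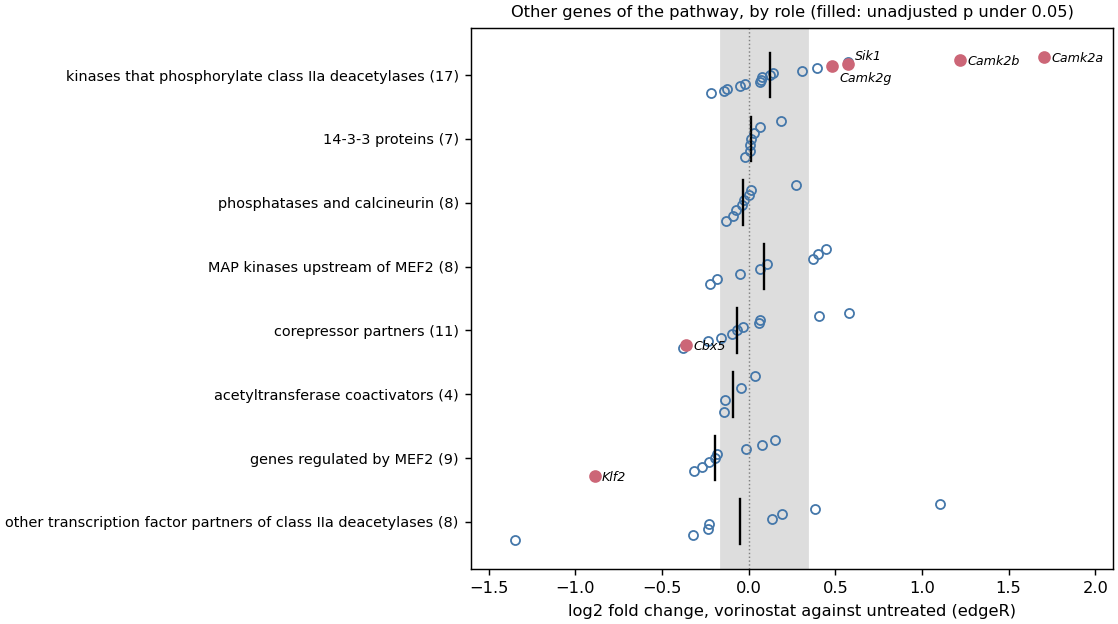
Log2 fold change, vorinostat against untreated (edgeR), of the 72 other pathway genes tested, by role with the number of genes in parentheses; filled points have an unadjusted p under 0.05 and are named, black lines are medians and the grey band holds the middle 50% of all genes. The filled kinases lie to the right, up to 1.71 for Camk2a, and the filled Cbx5 and Klf2 to the left, down to -0.89.

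The 4 higher genes were all kinases that phosphorylate class IIa deacetylases, and none passed the adjusted threshold. The kinase list, 1 of 8, had 17 genes tested, 12 above 0, with a median log2 fold change of 0.12. Over all genes 54.1% were above 0, the median was 0.03, and 3.36% were higher at an unadjusted edgeR p under 0.05. Ranges did not overlap for 23.5% of the kinases tested, against 12.1% of all genes. No set test was run. Sik1, a salt-inducible kinase, stood at 28.002, 29.0 and 27.7 CPM in the untreated and 48.3, 34.05 and 43.6 CPM in the treated tumours (log2 fold change 0.57 with SE 0.16, adjusted p 0.743 in edgeR). The untreated tumours were nearly equal and all treated ones were above them. Camk2b, a calcium/calmodulin-dependent kinase subunit abundant in neurons, stood at 2.14, 3.40 and 1.81 against 3.44, 3.77 and 10.5 CPM (log2 fold change 1.22 with SE 0.44, adjusted p 0.743 in edgeR). Vorinostat tumour 3 was far above the rest, and without it the value was 0.54. Camk2a and Camk2g, chosen after their values were seen, had log2 fold changes of 1.71 and 0.48. Camk2a, also neuronal, was at 5.20 CPM in vorinostat tumour 3 and at 0.420 to 1.27 CPM in the other 5, and without that tumour its value was 0.67. Camk2g had 6.14, 5.91 and 5.61 CPM without and 9.82, 7.72 and 7.09 CPM with the drug, and 0.57 without that tumour. Vorinostat tumour 3 also had the highest sum of 5 neuronal markers, 7.89 CPM, against 1.34 to 5.52 CPM in the other 5. Its reads on chemoreceptor genes, 214 CPM against 36.1 to 70.1 CPM, stood apart as well. The part of either in Camk2a and Camk2b was not tested.

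Among 11 corepressor partners 7 were below 0 and 4 above, with a median of -0.06. Their log2 fold changes ran from -0.38 to 0.58, so the largest change was a higher one. Over all genes 54.1% were above 0 and the median was 0.03. Ranges did not overlap for 2 lower genes and 1 higher gene, 27.3%, against 12.1% of all genes (5.53% lower and 6.53% higher). Cbx5, heterochromatin protein HP1 alpha, stood at 96.0, 80.0 and 102 CPM against 68.45, 74.6 and 73.7 CPM (log2 fold change -0.36 with SE 0.16, adjusted p 0.743 in edgeR), with all treated tumours below all untreated ones. Ncor1, a scaffold that joins Hdac3 to class IIa enzymes, led the list by level at 18.7 ± 5.61 TPM over the 6 tumours. It stood at 102, 89.6 and 137 CPM in the untreated and 80.6, 85.6 and 87.2 CPM in the treated tumours (log2 fold change -0.38 with SE 0.19, adjusted p 0.743 in edgeR). All treated tumours were below all untreated ones, untreated tumour 3 was far the highest, and without it the value was -0.22.

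Of 12 genes that MEF2 is known to regulate, 9 were tested, and none passed the edgeR threshold. Below 0 were 7 of them, where 54.1% of all genes were above 0. The median was -0.19 against 0.03 over all genes. Klf2, an endothelial and lymphocyte factor induced through Mapk7 and MEF2, stood at 21.9, 24.0 and 9.70 CPM in the untreated and 15.3, 7.49 and 7.09 CPM in the treated tumours (log2 fold change -0.89 with SE 0.34, adjusted p 0.743 in edgeR). Untreated tumours 1 and 2 were the highest, and untreated tumour 3 lay among the treated ones. Without a filter edgeR gave Klf2 a log2 fold change of -0.94 and an adjusted p of 0.00771, and over all settings its adjusted p ran up to 1.0. Klf6 had a log2 fold change of -0.23 (SE 0.19). Jun led the list by level at 20.8 ± 10.2 TPM. The muscle genes Myog and Ckm and the protease gene Mmp10 did not pass the filter.

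In the remaining roles no gene reached an unadjusted p under 0.05. Of 7 genes for 14-3-3 proteins the log2 fold changes ran from -0.02 to 0.19; Ywhae led by level at 183 ± 73.4 TPM and had 0.06 (SE 0.20), and Ywhah had 0.19 (SE 0.15). Of 8 phosphatase and calcineurin genes, Ppp2r2a, a regulatory subunit of protein phosphatase 2A, had 0.27 (SE 0.14) and Ppp3r1, the calcineurin B subunit, -0.13 (SE 0.14), with Ppp2r1a highest at 16.2 ± 8.27 TPM. Of 8 MAP kinase genes upstream of MEF2, Mapk7 (ERK5) had 0.40 (SE 0.20) and Map2k3, which activates p38, 0.45 (SE 0.25), with Mapk14 highest at 5.88 ± 2.87 TPM. Of 4 acetyltransferases, Kat2b had -0.13 (SE 0.14) and Kat2a, the highest at 5.86 ± 3.04 TPM, -0.14 (SE 0.17). Of 8 other transcription factor partners tested, Srf, a partner of MEF2 in muscle, had -0.23 (SE 0.15). Foxp3, the regulatory T cell factor, stood at 3.24, 0.836 and 1.43 against 0.792, 0.505 and 0.897 CPM (log2 fold change -1.35 with SE 0.67, adjusted p 0.743 in edgeR), and without untreated tumour 1 the value was -0.67. Hif1a led that list at 14.6 ± 6.30 TPM. Camk1 led the kinases at 12.5 ± 6.53 TPM.

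For each of the 7 tested genes, the protein-coding gene most like it was the one, of 7926 with a mean of 5 CPM or more, with the smallest root mean square difference in log2 CPM centred over the 6 tumours. Mef2d was nearest to Ppargc1a, which also stands in the list of MEF2-regulated genes, at a difference of 0.0297, where the median gene differed by 0.243. Ppargc1a stood at 69.4, 58.8 and 69.9 CPM in the untreated and 75.6, 69.4 and 74.6 CPM in the treated tumours, with the same low untreated tumour 2. Hdac4 was nearest to Sp1 (0.0254), Hdac5 to Ambra1 (0.0244), Hdac7 to Tpr (0.0254) and Mef2a to Nfkb1 (0.0308). Mef2c was nearest to Rpgrip1l at 0.0667 and Hdac9 to Nes at 0.143, the loosest matches. The genes compared share the 6 libraries, so these names are a description.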

How the data were processed

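Total RNA was sequenced from 6 B16F10 tumours, 3 untreated and 3 treated with vorinostat, as the labels' treatment field gives them. Salmon, FastQC, Trim Galore and the build GRCm38 are named, per the submitters' processing notes, without versions or annotation. Salmon's estimated counts, as deposited, were rounded to whole numbers. Deposited TPM served for levels between genes and for alternatives, and the gene lengths were read from the same deposited tables. Symbols came from GENCODE M21 for 44118 of 44679 identifiers. The annotation behind the files is not exactly that release, since none of the 10 Hdac9 transcripts there has 4422 bases.

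The test was edgeR 4.0.16 (R 4.3.3): TMM, filterByExpr, quasi-likelihood F test on treatment alone, two-sided, Benjamini-Hochberg over 14776 genes, threshold 0.05. Intervals are the log2 fold change ± its SE times the t quantile of the fit's degrees of freedom. Log2 CPM for likeness used a prior count of 2. On simulated counts for this comparison (14096 genes tested) 39 of 100 genes changed 2-fold and 82 of 100 changed 4-fold were recovered, with 8 false calls. Named genes were all 8 genes, the 2 with the smallest p and the highest by TPM of each pathway list, the nearest gene in pattern, and genes chosen after their values were seen where so stated. The genes and lists were chosen with earlier results of these data known. Alternatives were other scalings and filters, DESeq2 1.42.0, limma 3.58.1 on voom values and TPM, other sets of genes in the library, and libraries left out. The result of 1 gene of the pathway lists is not reported here, and it was taken out of its list.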

Additional observations from a re-analysis of the deposited data

How the results depend on the processing

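The count of genes called was 0 in edgeR, with 927 at an unadjusted p under 0.05. It was 156 without a filter, 11 in DESeq2, and 39 and 52 with limma on log2(TPM + 1) and log2(TPM + 0.1). With 1 tumour left out it ran from 0 to 121, the highest without untreated tumour 2, and without untreated tumour 3 it was 1. None of the 8 genes was called in any of the 17 other settings, and the lowest adjusted p of the 7 tested was 0.438. Of the pathway genes 1 was called without a filter (Klf2) and 1 on each TPM scale (Bach2, 1.10 in edgeR and 0.66 and 2.22 on the TPM scales).

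Directions of values so near 0 changed often, in 22 of 118 other values of the 7 genes. On log2(TPM + 1) and log2(TPM + 0.1), where all genes had medians of 0.26 and 0.51, the values were 0.16 and 0.24 for Hdac4, 0.18 and 0.39 for Hdac7, 0.50 and 0.65 for Mef2a, and 0.26 and 0.33 for Mef2c. Relative to these medians Hdac4 stood at -0.10 and -0.27 and Hdac7 at -0.08 and -0.12. Mef2c stood at -0.00089 and -0.18, whereas Mef2a stayed above the medians, at 0.24 and 0.14. Upper-quartile scaling gave 0.056 for Mef2a and 0.061 for Mef2c, limma-voom 0.0051 for Mef2c, and no filter -0.013 for Hdac5. Without untreated tumour 3 and vorinostat tumour 3 the values were -0.047 for Hdac5 and 0.049 for Mef2c. With 1 tumour left out they ran from -0.082 to 0.11 for Hdac5, -0.038 to 0.50 for Hdac9, -0.12 to 0.040 for Mef2a, -0.20 to 0.12 for Mef2c and -0.0073 to 0.14 for Mef2d; Hdac4 (-0.29 to -0.11) and Hdac7 (-0.19 to -0.031) kept their sign. Among pathway genes the TPM scales gave 0.33 and 0.39 for Ppp3r1, 0.28 and 0.35 for Kat2a, 0.26 and 0.31 for Klf6, and 0.21 and 0.27 for Srf. Ywhae was -0.0057 without a filter and ran from -0.059 to 0.10 with 1 tumour left out, and Kat2a was 0.00092 without both tumours numbered 3. The cause was not tested. No paired analysis was possible because the groups share fewer than 2 of the numbers in their titles, and none of the G numbers. Hdac9 gave no value with a filter of 1 CPM in 3 libraries, and Mef2b gave one only without a filter.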
